A study of Mus musculus with 4 samples.

Results

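The nuclear receptors are transcription factors that share a zinc finger DNA-binding domain and, in most members, a pocket for a small lipophilic ligand such as a steroid, thyroid hormone, vitamin, sterol or fatty acid. Retinoic acid acts through members of this superfamily, the RAR and RXR receptors. RXR is also the usual partner of the PPAR, LXR, FXR, VDR, PXR, CAR and thyroid hormone receptors. In embryonic stem cells a set of orphan receptors without a known dedicated hormone takes part in keeping or ending the expression of Pou5f1, the gene of the pluripotency factor OCT4. The members described here are 39 genes of the superfamily, listed by symbol without RAR, RXR and Esrrb, and they were found as all probes whose platform annotation gives that symbol. Of the 39 genes, 36 had at least 1 such probe (69 probes in all), among 19057 genes named on the array. Nr1h2, Nr2e3 and Nr2f1 had none and were not analysed here.

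The cells were of the line E14, established mouse embryonic stem cells cultured in serum with LIF, the cytokine that holds them undifferentiated. The tested cells received ATRA (all-trans retinoic acid) for 2 hours, and the controls received its vehicle, DMSO, for the same time. The vehicle arrays are called untreated in another label and wt in their titles, where the tested arrays are called ATRA. No label states the concentration of ATRA. Each group had 2 arrays, and the question was which receptors embryonic stem cells express and which of them differ shortly after added retinoic acid. Across the 4 arrays 40.1% to 42.3% of 45281 probes were detected (detection p under 0.05), at deposited intensities from about 104.4 to 106.3 upwards. Values below are normalised log2 intensities, on which the detection limit lay at 4.77 to 4.86. They carry an added offset, so folds of dim probes are understated, and brightness differs between probes for technical reasons, so no receptor's level is set against that of another. All 10 embryonic stem cell markers were detected, Pou5f1 at 12.19 and 12.25 with ATRA and 12.10 and 12.28 with DMSO. By brightest probe 0 of these markers rose and 2 fell past the threshold used below, Zfp42 (-0.40 on the log2 scale, limma adjusted p = 0.0041) and Sox2 (-0.39, adjusted p = 0.019). On the other Sox2 probe the groups overlapped, with a change of -0.23 (limma adjusted p = 0.51). By any probe Tbx3 also rose, by 0.36 on 1 of its 4 probes (adjusted p = 0.03), with all 4 higher on the ATRA arrays. Of 10 fibroblast (feeder) markers Acta2, Col1a1, Col3a1 and Thy1 were detected, with a summed linear value of 4800 and 4760 with ATRA and 5490 and 4810 with DMSO, nearly all of it Acta2, while Col1a2, Dcn, Lum, Postn, S100a4 and Fbln5 were below detection. Of 10 primitive endoderm markers Dab2, Gata6, Lama1 and Sox7 were detected, summing to 462 and 489 with ATRA and 501 and 466 with DMSO; Gata4, Sox17, Pdgfra, Foxa2, Afp and Ttr were below detection. Gata6, an endoderm regulator, was the one of them that rose, by 0.75 (limma adjusted p = 0.027). Its DMSO values were 4.59, below the detection limit, and 4.92. In such bulk RNA, more cells with a transcript and more transcript per cell cannot be told apart, and the part of these markers in the receptor results was not tested.

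Of the 36 receptor genes on the array, 13 were detected on at least 2 of the 4 arrays, which is 36.1%, against 53.5% of all named genes. Detected on all 4 arrays were Esrra, Hnf4a, Nr1d2, Nr2c1, Nr2f6, Nr5a2, Nr6a1, Ppard and Vdr (9 genes). Nr0b1 and Nr1d1 were detected on 3 arrays, and Nr1i3 and Rora on 2. These 13 genes, with 17 probes past that filter, entered the comparison of ATRA with DMSO. Taking the brightest probe of each gene, 0 of 13 passed the limma test at an adjusted p of 0.05, where 1.82% of the 10194 detected genes did. By any probe 1 of 13 passed, Esrra, where 2.18% of detected genes did. At an unadjusted p of 0.05, the brightest probes of 5 genes passed (Esrra, Nr2f6, Nr6a1, Nr5a2 and Nr1d1), against 12.4% of detected genes. The same 5 genes had ATRA arrays that did not overlap the DMSO arrays, 3 higher and 2 lower, against 41.2% of detected genes. The median change over the 13 genes was -0.011 on the log2 scale, beside -0.004 over all detected genes, and single changes ran from -0.42 to 0.39. With standard errors of 0.09 to 0.19, moderate changes of these receptors could be missed.

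**Figure D1:**
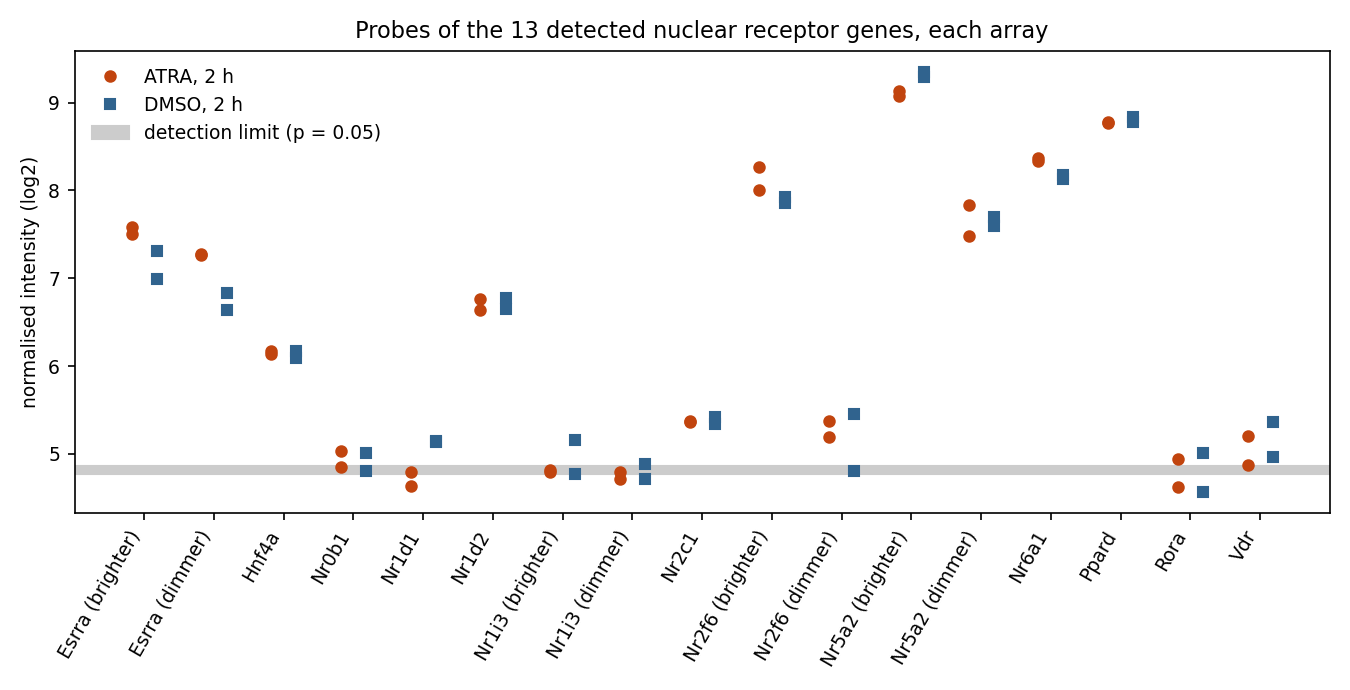
Normalised log2 intensity (vertical axis) of the 17 probes of the 13 detected nuclear receptor genes, with the 2 ATRA arrays as circles and the 2 DMSO arrays as squares; genes with a pair of probes have both shown, and the grey band is the detection limit at 4.77 to 4.86. The ATRA circles of both Esrra probes lie above the DMSO squares, and those of Nr1d1 lie below them at the detection limit.

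Esrra was the only receptor among them with a probe past the threshold. It encodes the estrogen-related receptor alpha, an orphan receptor that drives genes of mitochondria and oxidative metabolism together with the PGC-1 coactivators. On its dimmer probe Esrra stood at 7.28 and 7.26 on the ATRA arrays, and at 6.64 and 6.83 on the DMSO arrays. The deposited intensities behind these values were 233 and 230 with ATRA, and 177 and 192 with DMSO. Both ATRA arrays were higher than both DMSO arrays, and the ATRA arrays lay closer together. Esrra averaged 7.27 ± 0.02 with ATRA and 6.74 ± 0.14 with DMSO on this probe (SD, n = 2 each). It rose 1.45-fold (95% interval 1.23 to 1.70; change 0.53 on the log2 scale, SE 0.11, limma adjusted p = 0.0093). On its brighter probe Esrra stood at 7.58 and 7.50 with ATRA, and at 7.31 and 6.99 with DMSO. The direction was the same and the groups were again apart, by less than the gap between the DMSO arrays. The Esrra change on that probe was 0.39 (95% interval 0.16 to 0.63, limma adjusted p = 0.095), which did not pass.

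The call on the dimmer Esrra probe was lost on leaving out either ATRA array. In such a fit the remaining ATRA array is assumed to vary like the DMSO arrays, with the moderation that limma takes from all probes. The SE was 0.16 in either fit, beside 0.11 with all arrays. For Nr6a1, with an SD of 0.03 in each group, it was 0.14 in either fit, beside 0.09. What raised the SE was not tested. Without ATRA replicate 1 its change was 0.52 (adjusted p = 0.13), and without ATRA replicate 2 it was 0.55 (adjusted p = 0.086). The Esrra probe also missed the threshold when limma was run without its intensity trend (adjusted p = 0.13), and its change was 0.33 with no background correction, where it still passed. The brighter Esrra probe passed without DMSO replicate 1, with a change of 0.55. Without DMSO replicate 2 its change was 0.23, and it did not pass. In both fits the ATRA pair alone gave a spread within a group, with that moderation, and the SE was 0.11. The dimmer Nr5a2 probe, whose ATRA SD was 0.24, had an SE of 0.12 and 0.11 in the same fits. What set the SE was not tested.

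**Figure D2:**
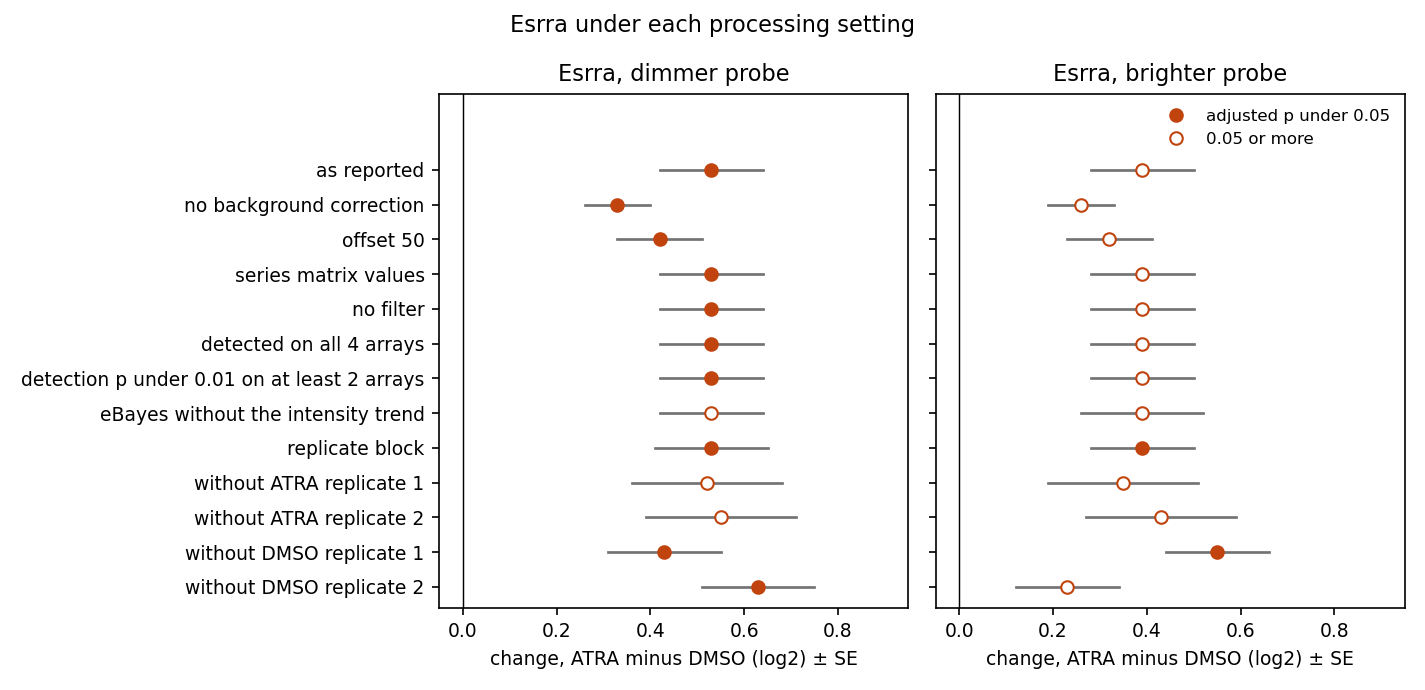
Change of Esrra, ATRA minus DMSO, on the log2 scale with its standard error, for the dimmer probe (left) and the brighter probe (right) under each processing setting; filled points have an adjusted p under 0.05. The change stays above 0 on both probes, from 0.33 to 0.63 on the dimmer and from 0.23 to 0.55 on the brighter.

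The promoter of Esrra is shown because Esrra was the receptor with a call, and because many, though not all, receptors of this superfamily recognise the hexamer AGGTCA, alone or in pairs. The RefSeq window covers 250 bases before to 50 bases after the annotated start (GRCm38.p6, chr19:6921759-6922058, minus strand, printed 5′ to 3′ along the gene).
Esrra: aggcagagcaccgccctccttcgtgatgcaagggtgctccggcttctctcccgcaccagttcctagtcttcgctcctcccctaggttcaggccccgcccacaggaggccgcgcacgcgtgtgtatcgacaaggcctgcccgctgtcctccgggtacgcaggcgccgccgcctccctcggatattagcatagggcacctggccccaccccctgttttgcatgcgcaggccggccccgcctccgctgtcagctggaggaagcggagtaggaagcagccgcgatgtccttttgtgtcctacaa
A GC content of 66.0% was found in it, and no exact AGGTCA on either strand, so that no letter is in capitals. Exact AGGTCA occurred in 16.3% of all 32851 promoter windows, read on both strands. Of the 48 windows of 35 receptor genes 8 held it, a share near that of all windows, and they belong to 7 genes (Nr0b1, Nr1d2, Nr1h4, Nr5a2, Nr6a1, Pparg and Thrb). Pairs of AGGTCA in direct repeat with 0, 1, 2, 3, 4 or 5 bases between them were found in 0 of the 48 receptor windows, and in 0.00609%, 0.0396%, 0.00913%, 0.00609%, 0.0152% and 0.00913% of all windows. AGGTCA with TCA directly before it was also found in 0 of the 48, against 0.423% of all windows. The single hexamer lies within each of these longer motifs, and it was added to the search after the other motifs had given no match.

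Estrogen-related receptors are known to act on genes of energy metabolism. Of 15 such genes on the array 13 were detected, with a median change of 0.052, and 1 rose and 0 fell past the threshold. That gene was Vegfa, the vascular endothelial growth factor, which other factors also control. Vegfa stood at 7.19 and 7.28 with ATRA and at 6.46 and 6.38 with DMSO, and rose 1.76-fold (limma adjusted p = 7.3e-05). Its change was 0.81 on the log2 scale, and 0.48 with no background correction, where it still passed. On its other probe Vegfa was at 0.44 without passing (adjusted p = 0.29). Genes of respiration such as Cycs (cytochrome c), Atp5b (a subunit of ATP synthase) and Cs (citrate synthase) had changes of 0.22, 0.02 and 0.05 (limma adjusted p = 0.23, 0.97 and 0.89). By brightest probe 8 of the 13 genes had a positive change. The others, Pdha1, Idh3a, Fh1, Uqcrc1 and Sdhb, were at -0.13, -0.12, -0.09, -0.07 and -0.03. Dimmer probes did not always share that direction. Another Idh3a probe was at 0.41 with the groups apart (limma adjusted p = 0.12). Tfam was at 0.09 by its brightest probe and at -0.19 on another, there with the groups apart (limma adjusted p = 0.37).

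The orphan receptors tied to Pou5f1 include Nr5a2, Nr6a1 and Nr0b1. Nr5a2 encodes LRH-1, which binds regulatory regions of Pou5f1 and keeps it expressed in the epiblast. On its brighter probe Nr5a2 stood at 9.13 and 9.07 with ATRA and at 9.29 and 9.35 with DMSO. Both ATRA arrays were lower than both DMSO arrays by more than the gaps within the groups. The change was -0.22 (95% interval -0.40 to -0.04, limma adjusted p = 0.28). On its dimmer probe Nr5a2 stood at 7.48 and 7.83 with ATRA and at 7.70 and 7.60 with DMSO. There the groups overlapped, with a change of 0.01 (95% interval -0.23 to 0.24). The remaining Nr5a2 probe was detected on 1 array, DMSO replicate 1, and was not tested. Whether the Nr5a2 probes differ in their change was not tested either.

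Nr6a1 encodes GCNF, a repressor that silences Pou5f1 when embryonic stem cells differentiate in retinoic acid. Nr6a1 stood at 8.37 and 8.33 with ATRA, and at 8.13 and 8.18 with DMSO. The ATRA arrays were higher, with gaps within the groups of less than the gap between them. The Nr6a1 difference was 0.19 (95% interval 0.00 to 0.39, limma adjusted p = 0.43), which did not pass. Nr0b1 encodes DAX1, an unusual member without the classical DNA-binding domain that binds other receptors, NR5A2 among them. Its probe lay at the detection limit, at 4.85 and 5.03 with ATRA and at 4.81 and 5.01 with DMSO, detected on 1 ATRA array and both DMSO arrays. The Nr0b1 groups overlapped almost fully (change 0.03, 95% interval -0.33 to 0.39). Pou5f1 itself was at 0.04 (adjusted p = 0.93).

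The promoter windows of Nr5a2, Nr6a1, Nr0b1 and Nr1d2 are the ones among detected receptors that hold AGGTCA, and the stretches around it are shown with the hexamer, or its reverse complement TGACCT, in capitals. They come from the RefSeq windows of GRCm38.p6 at chr1:136960477-136960542 (minus strand), chr2:38784525-38784636 (minus strand), chrX:86191619-86191684 (plus strand) and chr14:18239148-18239213 (minus strand), each along its gene.
Nr5a2: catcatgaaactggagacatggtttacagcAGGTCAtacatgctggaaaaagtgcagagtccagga
Nr6a1: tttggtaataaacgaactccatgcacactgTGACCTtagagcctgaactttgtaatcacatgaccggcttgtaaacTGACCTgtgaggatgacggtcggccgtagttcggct
Nr0b1: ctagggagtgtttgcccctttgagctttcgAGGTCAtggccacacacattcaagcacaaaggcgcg
Nr1d2: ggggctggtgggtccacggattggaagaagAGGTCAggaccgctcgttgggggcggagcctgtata
The hexamer begins 126 bases before the start of Nr0b1 and 77 before that of Nr1d2. Nr5a2 and Nr6a1 each have a pair of annotated starts with a window, and in each the window of 1 start has 0 matches. In the other Nr5a2 window the hexamer begins 64 bases before the start, and in the other Nr6a1 window it lies on the opposite strand, beginning 91 and 45 bases before the start. These matches describe letters and say nothing of binding.

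The COUP-TF and testicular receptor branch was represented by 2 detected genes. Nr2f6 encodes EAR2, a COUP-TF relative that mostly represses transcription. On its brighter probe Nr2f6 stood at 8.0 and 8.27 with ATRA and at 7.86 and 7.92 with DMSO. The ATRA arrays were higher, and the gap between them was larger than the gap between the groups. The Nr2f6 change was 0.24 (95% interval 0.03 to 0.46, limma adjusted p = 0.34), with 0.11 without ATRA replicate 2 and 0.38 without ATRA replicate 1. On its dimmer probe Nr2f6 stood at 5.38 and 5.19 with ATRA and at 4.81 and 5.46 with DMSO, with the ATRA arrays between the DMSO arrays. Nr2c1 encodes TR2, an orphan receptor that binds direct repeats together with TR4. Nr2c1 stood at 5.36 and 5.38 with ATRA and at 5.34 and 5.42 with DMSO (change -0.01, 95% interval -0.32 to 0.30). Nr2c2, the gene of TR4, and Nr2f2, the gene of COUP-TFII, a regulator that responds to retinoic acid in differentiating embryonal cells, were detected on 0 of the 4 arrays. The 4 probes of Nr2f2 lay between 4.23 and 4.43.

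The REV-ERB receptors NR1D1 and NR1D2 repress the clock gene Arntl, and the ROR receptors compete with them for the same sites. Nr1d1 stood at 4.64 and 4.80 with ATRA and at 5.14 and 5.15 with DMSO. It was lower on both ATRA arrays, detected on 1 of them and on both DMSO arrays. The Nr1d1 change was -0.42 (95% interval -0.78 to -0.07, limma adjusted p = 0.30). That size depends on the treatment of background, with -0.20 at an offset of 50 and -0.13 with no background correction. Nr1d2 stood at 6.64 and 6.76 with ATRA and at 6.65 and 6.78 with DMSO. Its values were nearly the same in both groups (change -0.02, 95% interval -0.26 to 0.22). Rora was at 4.94 and 4.62 with ATRA and at 4.57 and 5.01 with DMSO, on either side of the detection limit within each group (change -0.01, 95% interval -0.41 to 0.39), and Rorb was detected on 0 arrays.

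Among 10 detected clock genes that work with the REV-ERB receptors, 1 rose and 0 fell past the threshold, with a median change of 0.154. Bhlhe40, a basic helix-loop-helix repressor, stood at 7.95 and 8.08 with ATRA and at 7.35 and 7.40 with DMSO (1.56-fold, limma adjusted p = 0.00048). It missed the threshold without the intensity trend (adjusted p = 0.064). Arntl, Clock, Cry2 and Tef had changes of 0.16, 0.28, 0.29 and 0.30 without passing (limma adjusted p = 0.64, 0.28, 0.28 and 0.24). By brightest probe 6 of the 10 genes had a positive change. The others were Dbp, an output gene of the clock, at -0.12, and Per1, Per2 and Ciart at -0.08, -0.08 and -0.05. Another Per1 probe was at 0.31 with the groups apart (limma adjusted p = 0.35), and the other Ciart probes were at 0 and 0.05.

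**Figure D3:**
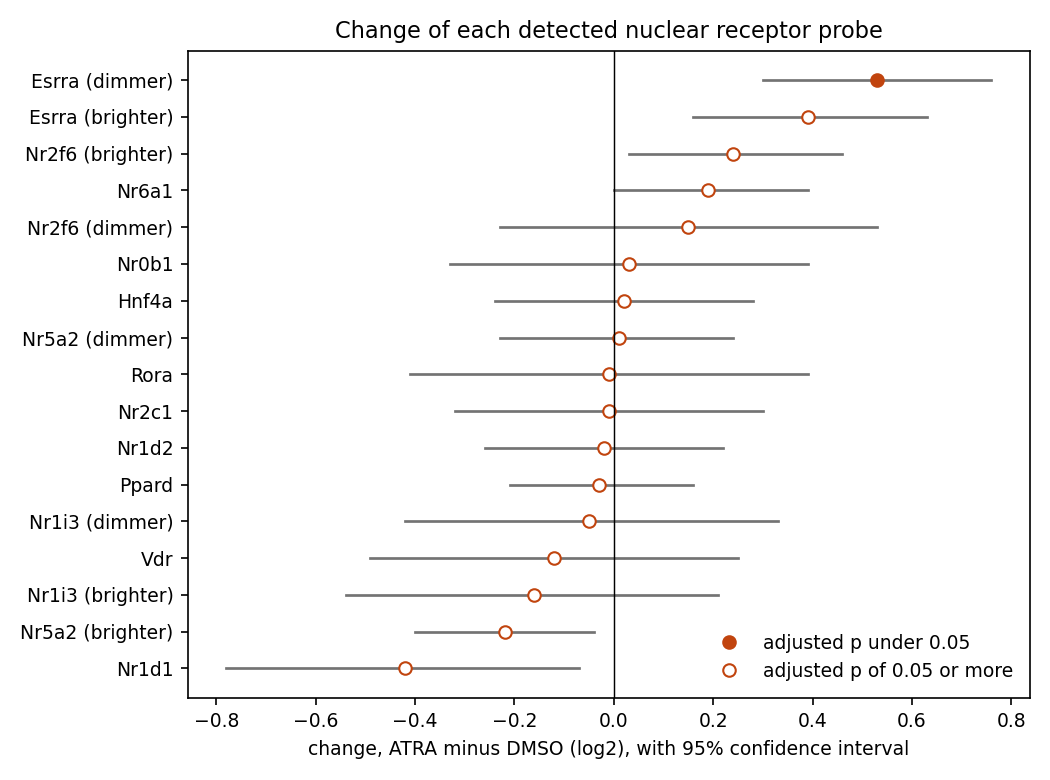
Change of each of the 17 probes of detected nuclear receptor genes, ATRA minus DMSO, on the log2 scale with its 95% confidence interval; filled points have an adjusted p under 0.05. The dimmer Esrra probe at 0.53 is the one filled point, and the intervals of Nr1d1, Nr6a1 (narrowly) and the brighter Esrra, Nr2f6 and Nr5a2 probes leave out 0 without passing after adjustment.

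Receptors of fatty acids, vitamins and foreign compounds that pair with RXR were detected in part. Ppard, the fatty acid receptor PPAR delta, which has also been described as a receptor of retinoic acid, stood at 8.77 and 8.78 with ATRA and at 8.83 and 8.78 with DMSO. The arrays lay close together and the groups met (change -0.03, 95% interval -0.21 to 0.16). The other PPAR genes, Ppara and Pparg, were detected on 0 arrays. Vdr, the vitamin D receptor, stood at 5.21 and 4.87 with ATRA and at 5.36 and 4.96 with DMSO on its brightest probe. Replicates differed by more than the groups did (change -0.12, 95% interval -0.49 to 0.25). Nr1i3, the xenobiotic receptor CAR, lay at the detection limit, at 4.79 and 4.82 with ATRA and at 5.16 and 4.77 with DMSO (change -0.16, 95% interval -0.54 to 0.21; -0.35 without DMSO replicate 2). Nr1i2, the xenobiotic receptor PXR, was detected on 1 array, ATRA replicate 2. Hnf4a, a receptor of liver and visceral endoderm that binds DNA as a homodimer, was detected on all 4 arrays at 6.17 and 6.14 with ATRA and at 6.09 and 6.17 with DMSO. Its groups overlapped (change 0.02, 95% interval -0.24 to 0.28), and Hnf4g was detected on 0 arrays.

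Target genes of the PPAR and LXR receptors were mostly below the threshold. Of 8 detected PPAR targets 0 passed by limma, with a median change of 0.112. Pdk4, a kinase that blocks pyruvate oxidation, had the smallest p of them and was chosen after its values were seen; it stood at 6.17 and 5.97 with ATRA and 5.65 and 5.53 with DMSO (change 0.48, adjusted p = 0.091). Of 8 detected LXR targets 1 rose, with a median of 0.182. Scd1, the stearoyl-CoA desaturase of fatty acid synthesis, stood at 8.51 and 8.64 with ATRA and at 8.05 and 8.10 with DMSO (1.41-fold, limma adjusted p = 0.0039). It did not pass without ATRA replicate 2 (adjusted p = 0.16) or without the intensity trend (adjusted p = 0.14). Srebf1, the sterol-regulated factor that LXR induces, stood at 5.11 and 4.94 with ATRA. With DMSO it was below the detection limit, at 4.67 and 4.62 (limma adjusted p = 0.41), and so entered the test only through the ATRA arrays. The same holds for Abcg1, a further gene of the LXR list, at 4.96 and 4.83 with ATRA and 4.6 and 4.75 with DMSO. The median of 0.182 includes both genes and is no support for a rise of the list. Of the receptors themselves, Nr1h3, the gene of LXR alpha, was detected on 0 arrays and Nr1h2, the gene of LXR beta, was not analysed here.

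The steroid receptors were not detected. Nr3c1 (the glucocorticoid receptor), Nr3c2 (the mineralocorticoid receptor), Pgr (the progesterone receptor), Esr1 and Esr2 (the estrogen receptors) had 0 arrays with a detection p under 0.05. The probe of Nr3c1 lay at 4.69 and 4.63 with ATRA and at 4.34 and 4.75 with DMSO, below the limit in both groups. A probe below detection gives no level, and 17 of the 36 genes had a single probe, so these values do not show that a receptor is absent. Of 11 detected glucocorticoid receptor targets 0 passed by limma, with a median change of -0.065. The NR4A receptors, which growth signals induce within an hour or so as immediate-early genes, were also below detection: Nr4a1, Nr4a2 and the 3 probes of Nr4a3 lay between 4.27 and 4.65 on all arrays. Of 11 detected immediate-early genes of that response 1 rose, Mcl1, a survival gene of the BCL2 family, at 11.59 and 11.47 with ATRA and 10.72 and 10.99 with DMSO (1.59-fold, limma adjusted p = 4.1e-05). Mcl1 missed the threshold without the intensity trend (adjusted p = 0.091), and the median change of the list was 0.037.

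In all, 20 receptor genes were detected on no array: the 5 steroid receptors, the 3 NR4A genes, Nr2f2, Nr2c2, Ppara, Pparg, Rorb, Hnf4g and Nr1h3 as above, and Nr0b2, Nr1h4, Nr5a1, Esrrg and Thrb. Nr0b2 encodes the repressor SHP, Nr1h4 the bile acid receptor FXR and Nr5a1 the steroidogenic factor SF-1; Esrrg encodes another estrogen-related receptor and Thrb a thyroid hormone receptor. Their 40 probes lay between 4.21 and 4.75 on all arrays. The other thyroid hormone receptor gene, Thra, and Nr2e1, the gene of the neural stem cell receptor TLX, were each detected on 1 array, DMSO replicate 1, at 5.11 and 5.0.

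The receptors outside the list and the coregulators through which nuclear receptors act gave no calls either. Of the 8 RAR, RXR and other superfamily genes on the array 7 were detected and 0 passed by limma, with a median change of 0.231. Of 22 coregulator genes 17 were detected and 0 passed, with a median of 0.017. At an unadjusted limma p of 0.05, 3 of the 7 receptors would pass, against 12.4% of detected genes: Rara, Rarb and Rarg, all higher with ATRA. So would 2 of the 17 coregulators, Crebbp (-0.30) and Pprc1 (-0.17), both lower with ATRA. The other Crebbp probes were at -0.22 and 0.12. Rarb lay at 4.86 and 4.99 with ATRA and below the detection limit, at 4.43 and 4.34, with DMSO. It thus entered the test only through the ATRA arrays. Its count is no support, and the median of 0.231, which includes its change of 0.54, is none either.

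**Figure D4:**
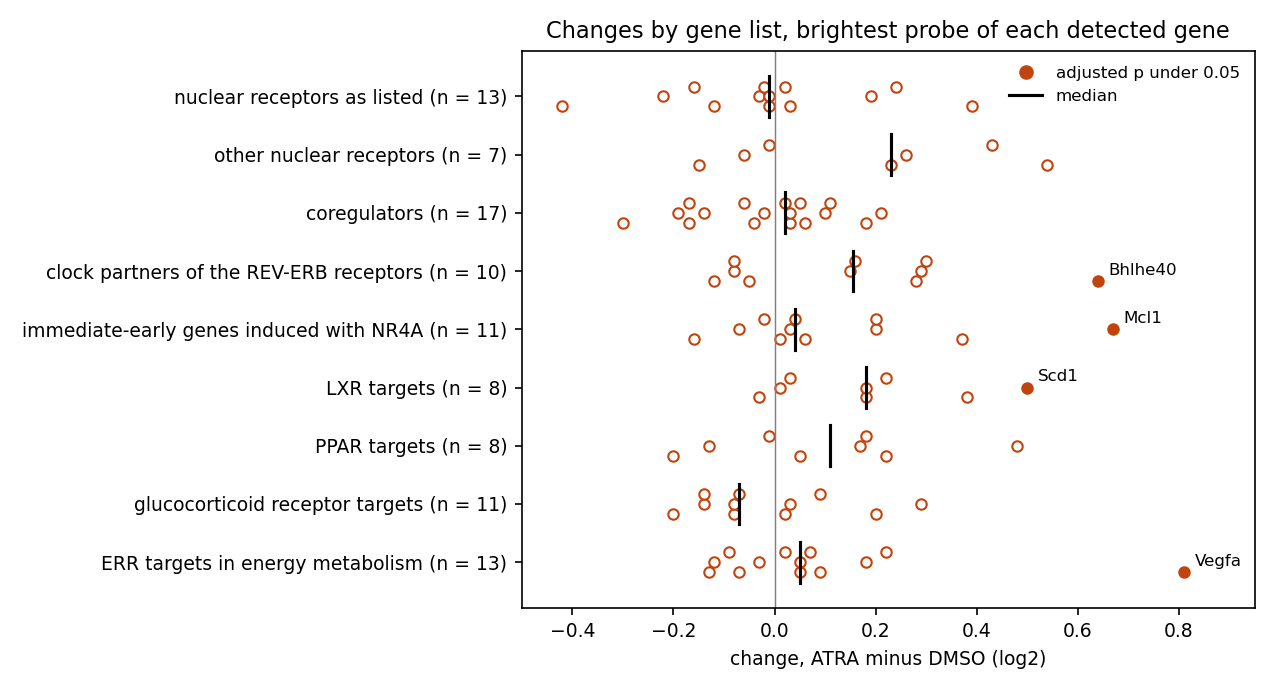
Change of each detected gene by its brightest probe, ATRA minus DMSO, on the log2 scale (horizontal axis), by gene list; filled and named points have an adjusted p under 0.05 and black bars are medians. No receptor or coregulator is filled, and single genes of the clock, immediate-early, LXR and ERR lists stand out at 0.50 to 0.81.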

How the data were processed

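RNA of E14 cells was measured on 4 single-colour Illumina bead arrays. The authors deposited linear intensity values with a detection p-value beside each, per the file headers; GenomeStudio made them, per the submitters' processing notes, with no further step given. Once sorted, intensities differ between arrays by at most 0.228, which shows that the deposited values had been quantile normalized; a general shift of most transcripts would thus not be visible. The series matrix holds the same intensity values minus 93.5.

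From the table with detection p-values, neqc of limma 3.58.1 (R 4.3.3) corrected the background, added an offset of 16, normalized and took log2. Probes with a detection p under 0.05 on at least 2 arrays were kept (19112 of 45281). The groups were compared over all kept probes by lmFit and eBayes, using an intensity trend, with Benjamini-Hochberg adjustment and a threshold of 0.05; all adjusted p-values are from this test. A gene is given by its kept probe with the highest mean, and "brighter" and "dimmer" rank probes of 1 gene. The fit was tested on simulated data. Probe names come from the platform annotation, matched by Entrez identifier to RefSeq; promoters are RefSeq, GRCm38.p6.

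All receptors are accounted for. By rule, values on every array are given for those with a probe past the threshold, the 10 brightest and the 8 with the smallest p among the rest; of other lists, genes past the threshold and those a sentence needs are named. The members and gene lists were chosen with earlier results of these data known. The labels do not say whether replicates are separate cultures; p-values therefore reflect the spread between the arrays alone, possibly a technical one. An exact permutation test of 2 against 2 arrays has 0.333 as its smallest p and was not used. The number of arrays limits the precision. Alternatives were other background handling, filters, the series matrix values, no intensity trend, a replicate block and leaving out each array.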

Additional observations from a re-analysis of the deposited data

How the results depend on the processing

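The receptor results rest on 2 arrays a group. Over the 17 receptor probes and 12 alternative settings, 187 changes could be computed, of which 170 kept their direction and their side of the threshold. Calls were lost or gained in 5 cases, all of Esrra, given in the report or here. Direction turned in 12 cases, each on leaving out an array and each for a probe whose change was 0.15 or less in size. On leaving out 1 array in turn, the changes ranged from -0.02 to 0.06 for Hnf4a, from -0.07 to 0.13 for Nr0b1, from -0.08 to 0.05 for Nr1d2 and from -0.05 to 0.03 for Nr2c1. They ranged from -0.18 to 0.48 for the dimmer Nr2f6 probe, from -0.17 to 0.18 for the dimmer Nr5a2 probe, from -0.23 to 0.15 for Rora, from -0.35 to -0.15 for the brighter Nr1i3 probe (direction kept) and from -0.32 to 0.08 for Vdr. Detected receptor genes numbered 13 as reported, 12 without any 1 array, 9 when detection on all 4 arrays was asked, 16 when 1 array sufficed and 8 at a detection p under 0.01 (Vdr, Nr0b1, Nr1d1, Nr1i3 and Rora dropped out). Receptor genes past the threshold by brightest probe numbered 0 as reported and 0 to 1 on leaving out an array; with the replicate block, or by any probe, it was 1, Esrra. Over all probes the count was 302 as reported, 133 to 956 on leaving out an array, 74 without the intensity trend and 492 with the replicate block. The numbers of the arrays do not mark a known pairing: deviations of same-numbered arrays from their group means correlated with r = -0.003 across probes, and the block raised the brighter Esrra probe past the threshold (adjusted p = 0.023). The causes of these shifts were not tested. Signals near the detection limit bound what can be said of Nr0b1, Nr1d1, Nr1i3, Rora and Vdr.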

Other observations

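Catsperz, a gene of the sperm cation channel complex, lies next to Esrra in the RefSeq annotation, and on the same strand. It was looked up after the Esrra values were seen. On its brighter probe Catsperz stood at 8.65 and 8.68 with ATRA and at 8.44 and 8.22 with DMSO, with both ATRA arrays higher (change 0.34, 95% interval 0.14 to 0.54, limma adjusted p = 0.09). Its other probe was at 0.21 (adjusted p = 0.62). Trmt112, the neighbour on the other side and on the opposite strand, whose annotated end overlaps that of Esrra, was at 0.09 (95% interval -0.20 to 0.37, adjusted p = 0.88). Neither gene passed the threshold, and whether the signals of Esrra and Catsperz are related was not tested.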
